A study of Mus musculus with 18 samples.

Results

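Spontaneous colitis in mice that lack interleukin 10 (Il10KO) was followed by RNA sequencing of the distal colon, and 10 genes are described here: Klb, Galnt17, Hsd3b3, Slc30a10, Bmp3, Ndnf, Fndc5, Syt4, Kif26b and Peg10. They were chosen by measured values, as large falls from the 6-week knockout at week 10, 12 or 14, out of 16321 genes in the deposited table. Their levels at those ages are therefore a description of the choice, given without a test, and all 10 passed the filter on low counts. The groups were BALB/c Il10KO mice at weeks 6, 8, 10, 12 and 14 of life and BALB/c wild-type (WT) mice at week 6, written W6 to W14, 3 mice per group and 1 library per mouse, which makes 6 groups and 18 libraries. No later wild-type group was analysed, so colitis and growth cannot be told apart in the later knockout mice. The whole animal lacked Il10, and each library came from a piece of bulk tissue, in which fewer cells of a type and less RNA per cell cannot be told apart.

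Interleukin 10 holds back immune responses in the gut, and mice without it develop inflammation against their own bacteria. The colon wall holds an absorptive and mucus-forming epithelium, a stroma with vessels and fibroblasts, and muscle layers with the enteric nervous system, and inflamed tissue adds neutrophils and other leukocytes to these. The 10 genes belong to different functions of resident tissue: a hormone co-receptor, enzymes of glycosylation and steroid conversion, a metal exporter, secreted and membrane-bound signalling proteins, and proteins of vesicles and the cytoskeleton.

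The start regions of the genes differed in CG content, and they are shown because the genes were low in the same libraries. RefSeq windows (GRCm38.p6, 250 bases before to 50 bases after the start) were found for 6 of the 10 genes, and none was matched for Bmp3, Ndnf, Peg10 and Syt4. The next 4 windows span the range of CG content, with each CG dinucleotide in capitals. The first is Hsd3b3 at chr3:98763079-98763378 (reverse strand), the second Klb at chr5:65348161-65348460 (forward strand), the third Galnt17 at chr5:131307473-131307772 (reverse strand) and the last Fndc5 at chr4:129136749-129137048 (forward strand).
Hsd3b3: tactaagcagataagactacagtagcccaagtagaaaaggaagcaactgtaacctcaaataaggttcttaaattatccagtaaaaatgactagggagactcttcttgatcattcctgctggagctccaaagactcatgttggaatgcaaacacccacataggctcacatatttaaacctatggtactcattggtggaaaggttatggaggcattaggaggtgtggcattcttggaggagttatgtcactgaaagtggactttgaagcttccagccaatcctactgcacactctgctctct
Klb: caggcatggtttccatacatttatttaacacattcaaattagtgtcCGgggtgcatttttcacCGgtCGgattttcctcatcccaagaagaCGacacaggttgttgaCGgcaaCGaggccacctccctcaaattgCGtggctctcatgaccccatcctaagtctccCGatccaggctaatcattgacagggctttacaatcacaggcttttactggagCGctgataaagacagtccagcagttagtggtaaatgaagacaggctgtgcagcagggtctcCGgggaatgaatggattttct
Galnt17: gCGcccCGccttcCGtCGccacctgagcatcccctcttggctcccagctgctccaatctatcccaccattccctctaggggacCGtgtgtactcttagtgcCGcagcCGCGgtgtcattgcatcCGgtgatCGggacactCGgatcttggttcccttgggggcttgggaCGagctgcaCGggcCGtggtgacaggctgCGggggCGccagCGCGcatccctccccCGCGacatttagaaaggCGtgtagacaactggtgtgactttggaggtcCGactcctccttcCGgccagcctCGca
Fndc5: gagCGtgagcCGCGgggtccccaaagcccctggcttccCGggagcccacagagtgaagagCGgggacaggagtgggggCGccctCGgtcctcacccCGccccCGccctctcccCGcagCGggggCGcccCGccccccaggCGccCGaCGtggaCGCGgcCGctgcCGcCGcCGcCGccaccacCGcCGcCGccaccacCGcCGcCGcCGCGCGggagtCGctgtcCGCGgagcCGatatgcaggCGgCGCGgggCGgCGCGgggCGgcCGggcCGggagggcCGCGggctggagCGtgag

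The window of Hsd3b3 held 0 CG dinucleotides, as did a further RefSeq window of that gene at chr3:98762361-98762660. Klb held 10, Slc30a10 12, Galnt17 24, Kif26b 38 and Fndc5 48. Over 32851 RefSeq windows of the same length the median was 7, with quartiles of 3 and 20. Fewer CG dinucleotides than in Fndc5 were found in 98.8% of windows, and fewer than in Klb in 56.5%. Of 4 short motifs searched on both strands, TATAAA was in none of the 6 genes' windows and in 13.6% of all windows, and CAATAAA was in none and in 4.6%. AGATAA was found in both windows of Hsd3b3 and in no other of the 6 genes, against 11.2% of all windows. CCAAT was found in Hsd3b3, Galnt17, Slc30a10 and Kif26b and in 37.4% of all windows. Such matches describe these windows and are not binding sites.

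**Figure D1:**
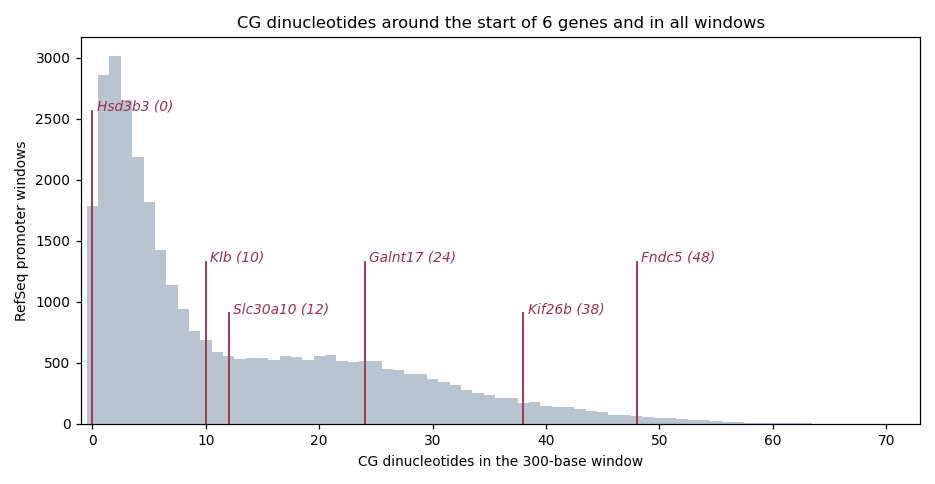
CG dinucleotides (x axis) in the RefSeq promoter windows of 6 of the genes (red lines, count in brackets) over the number of all 32851 windows with that count (grey bars, y axis). Hsd3b3 lies at 0, Klb and Slc30a10 at 10 and 12, and Galnt17, Kif26b and Fndc5 at 24, 38 and 48.

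Depth was 26495521 to 35497101 estimated counts per library. The RNA integrity number (RIN) was 8.4 to 9.3 in 16 libraries and 6.5 and 5.8 in replicates 2 and 3 of W14. Replicate 1 of W14 stood apart from those 2, so the W14 values of the 10 genes are also given without them. Lipocalin, a neutrophil-associated marker of gut inflammation given in ng/g, was 2.27 to 4.72 at W6, 102 to 136 at W8, 340 to 554 at W10, 444 to 2570 at W12 and 2040 to 4290 at W14 in the knockout, against 0.592 in the only WT mouse with a value. The targeted gene Il10 had 0 estimated counts in all 15 knockout libraries, against 1, 0 and 3 in WT, so it is too low here to check the labels. Colonocyte markers such as Car1 and Slc26a3 summed to between 1155 and 6651 TPM (transcripts-per-million, a level scaled to transcript length) in every library. Levels below are counts-per-million (CPM) scaled to effective library size, and each log2 fold change is given ± SE from a single edgeR model of all 18 libraries (n = 3 per group). Where a library had 0 counts, the limit is 3 counts, or 0.079 to 0.187 CPM by library, for counting error only.

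Klb encodes beta-klotho, the co-receptor that endocrine fibroblast growth factors such as FGF15 and FGF21 need to act on FGF receptors (chr5:65348314-65384007, forward strand). Its level was 21.8, 22.4 and 24.4 CPM at W6, 9.93, 5.34 and 4.29 at W8 and 0.269, 0.58 and 0.783 at W10. It was 2.12, 3.45 and 5.38 CPM at W12, 9.06, 0 and 0.156 at W14 and 16.9, 16.6 and 15.5 in WT. The 3 libraries of W6 lay above every other library, and W8, W10 and W12 lay wholly below WT, with W8 and W12 overlapping. At W14 a single library, replicate 1, kept a level like those of W8, while replicate 2 had 0 counts and replicate 3 had 3. The log2 fold change against W6 was -5.37 ± 1.2 at W10, -2.65 ± 1.04 at W12 and -2.84 ± 1.04 at W14. At W14 the value was -8.02 without replicate 1 and -1.34 without replicates 2 and 3.

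Galnt17 belongs to the GalNAc-transferases, which start mucin-type O-glycosylation by placing N-acetylgalactosamine on serine or threonine (chr5:130872082-131308497, reverse strand). It measured 18.3, 22.3 and 29.3 CPM at W6, 7.36, 0.974 and 3.11 at W8 and 0.115, 0.887 and 0.572 at W10. It measured 1.03, 1.31 and 1.43 CPM at W12, 9.06, 0.499 and 0.364 at W14 and 23.7, 20.6 and 28.1 in WT. W6 and WT overlapped, W8 lay wholly below both, and W10 lay wholly below W12. Against W6 its log2 fold change was -5.45 ± 1.09 at W10, -4.21 ± 1.01 at W12 and -2.77 ± 0.94 at W14. Without replicate 1 the W14 value was -5.76, and without replicates 2 and 3 it was -1.37.

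Hsd3b3 is a hydroxysteroid dehydrogenase of the family that turns pregnenolone into progesterone and acts on related steroids (chr3:98741523-98763127, reverse strand). It had 36.4, 25.1 and 32 CPM at W6, 18.3, 7.79 and 4.0 at W8 and 0.269, 1.43 and 0.662 at W10. It had 9.68, 17.2 and 28.2 CPM at W12, 22.8, 1.75 and 1.09 at W14 and 38, 24.2 and 34.6 in WT. Its W12 libraries lay above all of W10, and replicate 3 of W12 lay inside the W6 range. Relative to W6 the log2 fold change was -5.29 ± 1.04 at W10 but -0.76 ± 0.85 at W12 and -1.85 ± 0.87 at W14. The W14 value moved to -4.47 without replicate 1 and to -0.46 without replicates 2 and 3. The W12 value lay between -1.20 and -0.46 when 1 library of W12 was left out. Among the 10 genes Hsd3b3 had the highest level per length at W6, with 0.621 ± 0.404 TPM at W10 against 38.9 ± 8.62 at W6 (SD, n = 3 each).

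Hsd3b3 has near-identical neighbours on chromosome 3, so its count is uncertain: reads can be shared out among them. Over 1119 coding bases Hsd3b3-201, which is not the only protein-coding transcript of the gene, matched Hsd3b2 at 95.08%, Hsd3b6 at 94.46% and Hsd3b1 at 89.28% (GRCm38). Hsd3b6 had at most 2.0 estimated counts in any library and Hsd3b1 at most 6.02. Hsd3b2, whose profile was also the closest to that of Hsd3b3, differed from it at 55 bases, and the longest run without a difference was 228 bases. The first 150 coding bases of both show how far a read can tell them apart, with the 9 differing bases in capitals.
Hsd3b3: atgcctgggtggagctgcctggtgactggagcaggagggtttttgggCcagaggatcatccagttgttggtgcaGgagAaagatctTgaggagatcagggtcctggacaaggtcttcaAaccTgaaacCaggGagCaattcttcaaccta
Hsd3b2: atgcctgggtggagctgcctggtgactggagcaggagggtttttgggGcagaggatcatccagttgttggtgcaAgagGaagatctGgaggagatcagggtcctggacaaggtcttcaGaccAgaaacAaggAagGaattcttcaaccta

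The transcript tables gave Hsd3b2 176, 135 and 136 estimated counts at W6, 86.6, 41.6 and 18.2 at W8, and 3.32, 10.8 and 4.8 at W10. They were 53.0, 112 and 132 estimated counts at W12, 142, 4.0 and 3.71 at W14, and 106, 121 and 147 in WT. Like Hsd3b3, it was lowest in the 3 libraries of W10 and in replicates 2 and 3 of W14, and how reads were split between them was not tested.

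Slc30a10 exports manganese from cells (chr1:185454848-185468762, forward strand). It had 38, 4.14 and 9.55 CPM at W6, 8.41, 0.236 and 1.15 at W8 and 0, 0.512 and 0.301 at W10. It had 0.401, 1.05 and 4.81 CPM at W12, 28.5, 0 and 0.0519 at W14 and 13.8, 5.28 and 14.5 in WT. It varied widely within groups: replicates 1 and 2 of W6 differed widely, and the 3 libraries of W14 held 1081, 0 and 1 counts. The W10 libraries lay below every W6 and WT library, whereas W12 and W14 overlapped W6. Compared with W6 the log2 fold change was -5.94 ± 2.03 at W10, -3.04 ± 1.71 at W12 and -0.84 ± 1.58 at W14, and the last was -9.06 without replicate 1 of W14, 0.72 without replicates 2 and 3, and 0.49 without replicate 1 of W6. The W12 value was -1.71 without replicate 1 of W6 and -4.56 without replicate 3 of W12.

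Among secreted signals, Bmp3 is a BMP-family ligand that opposes other BMPs (chr5:98854415-98884396, forward strand). It had 45.8, 38.3 and 34.9 CPM at W6, 21.5, 4.87 and 10.5 at W8 and 1.58, 4.2 and 8.31 at W10. It had 5.01, 2.84 and 4.33 CPM at W12, 15.5, 1.5 and 0.779 at W14 and 35, 27.4 and 36.4 in WT. Every library from W8 on lay below every W6 and WT library. Against W6 its log2 fold change was -3.07 ± 0.87 at W10, -3.29 ± 0.88 at W12 and -2.71 ± 0.85 at W14. At W14 the value was -5.14 without replicate 1 and -1.36 without replicates 2 and 3.

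Ndnf encodes neuron-derived neurotrophic factor, a secreted glycoprotein (chr6:65671590-65712326, forward strand). It had 4.31, 10.4 and 5.42 CPM at W6, 5.14, 1.18 and 1.33 at W8 and 0.922, 0.683 and 0.783 at W10. It had 0.516, 0.945 and 1.31 CPM at W12, 2.03, 0.25 and 1.19 at W14 and 4.74, 4.32 and 6.22 in WT. Replicate 1 of W8 lay within the W6 and WT ranges, and every other library from W8 on lay below them. Relative to W6 the log2 fold change was -3.07 ± 0.68 at W10, -2.86 ± 0.67 at W12 and -2.49 ± 0.66 at W14. Without replicate 1 the W14 value was -3.18, and without replicates 2 and 3 it was -1.73. On the TPM scale replicate 1 of W14 stood at 2.07, above every other library of the gene, and 1.85 TPM of it came from Ndnf-202, a retained-intron transcript of 527 bases with 12.6 estimated counts. The count-based values are less affected: in that library 64.2 estimated counts lay on the coding transcript of 10101 bases, beside those 12.6. Over all 18 libraries the coding transcript held 98.36% of the gene's counts.

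Fndc5 is the membrane precursor of irisin (chr4:129136999-129144593, forward strand). It had 6.45, 6.7 and 7.42 CPM at W6, 0.92, 1.39 and 0.518 at W8 and 0.423, 1.06 and 0.813 at W10. It had 0.888, 1.6 and 1.27 CPM at W12, 1.95, 0.312 and 0.571 at W14 and 4.26, 5.17 and 5.85 in WT. The 3 groups W8, W10 and W12 overlapped one another, at 6.16% to 23.3% of the W6 mean per library, so W8 was already in the range of the later ages. Compared with W6 the log2 fold change was -3.15 ± 0.56 at W10, -2.45 ± 0.54 at W12 and -2.8 ± 0.55 at W14. The W14 value moved to -3.93 without replicate 1 and to -1.82 without replicates 2 and 3.

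Syt4 is a synaptotagmin, a protein of secretory vesicles in neurons and endocrine cells (chr18:31437808-31447406, reverse strand). It had 3.37, 4.49 and 3.38 CPM at W6, 3.14, 1.36 and 1.63 at W8 and 1.19, 0.922 and 1.69 at W10. It had 0.659, 0.509 and 0.828 CPM at W12, 2.08, 0.998 and 1.25 at W14 and 2.1, 3.67 and 4.12 in WT. Its lowest group was W12, which lay wholly below W10. Set against W6, the log2 fold change was -1.56 ± 0.41 at W10, -2.48 ± 0.43 at W12 and -1.36 ± 0.41 at W14, the W10 value being the smallest fall among the 10 genes at that age. The W14 value moved to -1.73 without replicate 1 and to -0.85 without replicates 2 and 3.

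Kif26b is an atypical kinesin that acts in Wnt5a and Ror signalling (chr1:178529125-178939200, forward strand). It had 2.29, 2.47 and 2.19 CPM at W6, 1.24, 0.384 and 0.814 at W8 and 0.346, 0.375 and 0.452 at W10. It had 0.487, 1.02 and 0.382 CPM at W12, 0.474, 0.499 and 0 at W14 and 1.68, 2.85 and 1.75 in WT. It is the gene with its lowest mean at W14, where replicate 3 had 0 counts. The log2 fold change against W6 was -2.55 ± 0.69 at W10, -1.88 ± 0.66 at W12 and -2.79 ± 0.71 at W14. At W14 the value was -3.27 without replicate 1 and -2.28 without replicates 2 and 3.

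Peg10 is a paternally expressed imprinted gene of retrotransposon origin (chr6:4747306-4760517, forward strand), next to the imprinted gene Sgce. It had 2.02, 2.62 and 1.85 CPM at W6, 1.43, 0.59 and 0.74 at W8 and 0.154, 0.375 and 0.994 at W10. It had 0.201, 0.291 and 0.478 CPM at W12, 1.34, 0.374 and 0.364 at W14 and 1.59, 2.35 and 1.75 in WT. Kif26b and Peg10 were the least abundant of the 10 by counts, and each later library rested on 51 counts or fewer of Peg10. Against W6 the log2 fold change of Peg10 was -2.06 ± 0.63 at W10, -2.73 ± 0.66 at W12 and -1.58 ± 0.62 at W14. Without replicate 1 the W14 value was -2.54, and without replicates 2 and 3 it was -0.69.

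**Figure D2:**
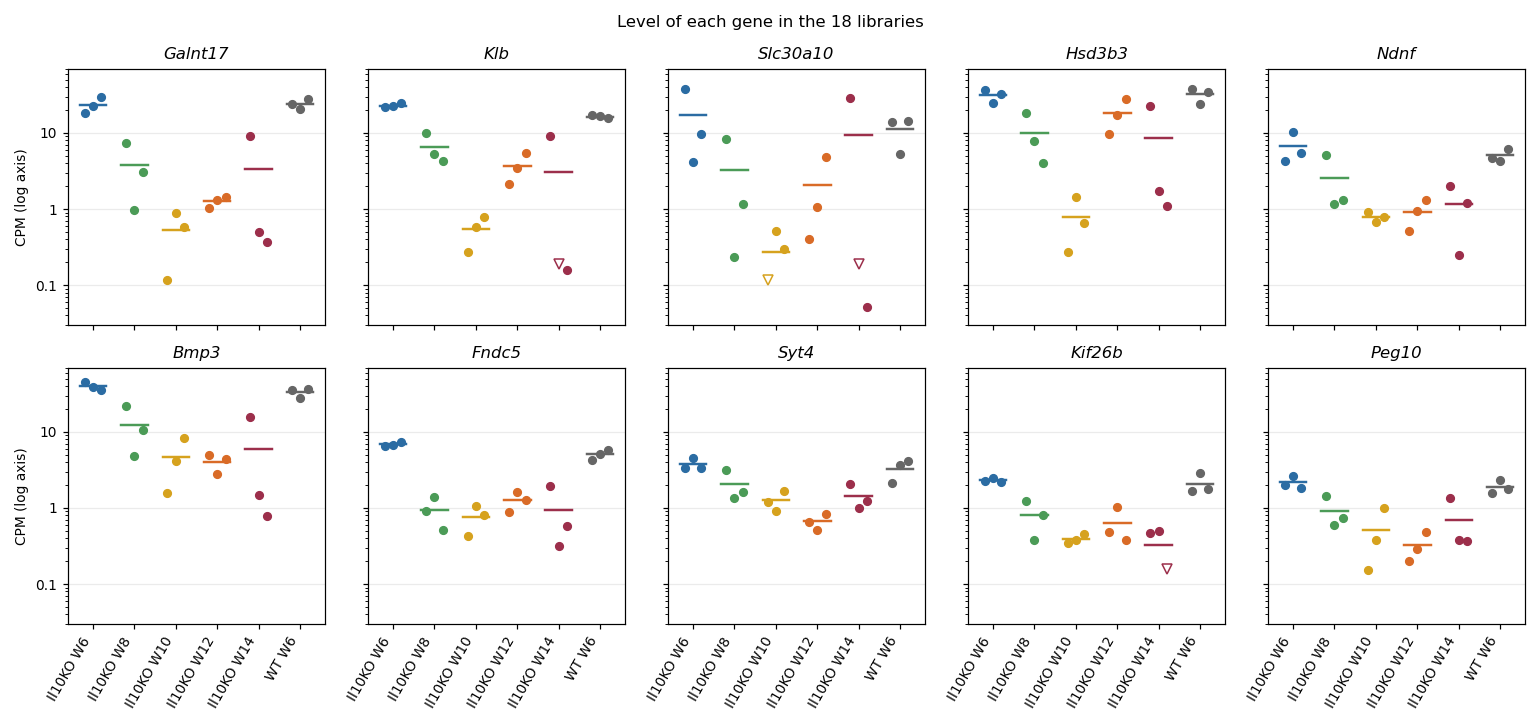
CPM (y axis, log scale) of each gene in the 18 libraries, by group (x axis). Points are libraries, short lines are group means, and open triangles mark the limit that a count of 0 allows. The 3 libraries of W6 and of WT lie above all later libraries, except in Slc30a10, Hsd3b3, Ndnf and Syt4. In those genes some later libraries overlap W6 or WT. Replicate 1 of W14 stands above the other libraries of its group in 9 of the 10 genes.

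The lowest group was not the same for every gene. The lowest mean fell at W10 for 6 genes, at W12 for Bmp3, Syt4 and Peg10, and at W14 for Kif26b. The libraries of W10 lay wholly below those of W6 in 10 of 10 genes, where 30.3% of all genes tested did so. At W12 this held for 8 of 10 genes, without Slc30a10 and Hsd3b3, against 32.9% of all genes, and at W14 for 9 of 10, without Slc30a10, against 21.5%. These ages chose the genes, so nothing is read from those counts, nor from the next. Of the 2 ages W12 and W10, Galnt17, Klb and Hsd3b3 were higher in every W12 library than in every W10 library, as were 11.7% of all genes, and Syt4 was lower in every W12 library, as were 12.0%. The median log2 fold change of the 10 genes against W6 was -3.11 at W10, -2.69 at W12 and -2.60 at W14, beside 0.01, 0.0028 and -0.06 over all genes tested. At W14 the median of the 10 was -4.20 without replicate 1 and -1.35 without replicates 2 and 3.

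Libraries of the same age differed widely at W8 and W14. As a median over the 10 genes, the 3 libraries of W8 stood at 53.8%, 18.9% and 19.3% of the W6 mean, and those of W10 at 5.07%, 10.4% and 11.8%. Those of W12 stood at 11.0%, 13.8% and 20.8%, and those of W14 at 39.3%, 4.16% and 2.73%. Those of WT stood at 73.7%, 76.5% and 88.5%. Replicate 1 was the highest of its group in 9 of 10 genes at W8 and again in 9 of 10 at W14. The exceptions were Fndc5 at W8 and Kif26b at W14, in which replicate 2 was the highest.

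**Figure D3:**
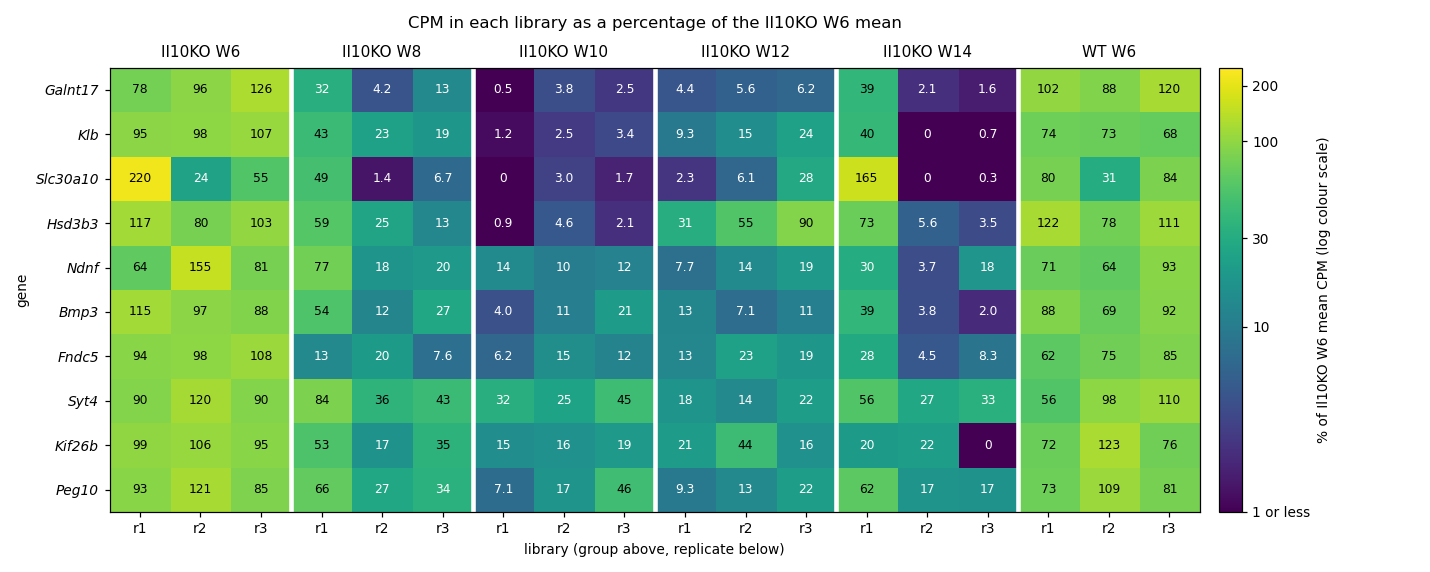
CPM of each gene (rows) in each library (columns) as a percentage of its Il10KO W6 mean, printed in the cells and coloured on a log scale. Replicate 1 of W8 and of W14 are the lighter columns within their groups, with medians of 53.8% and 39.3%.

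The age of 8 weeks was not used to choose the genes, but it shares its baseline with the choice when set against W6. Against W6 the W8 libraries lay wholly below in 8 of 10 genes, the exceptions being Slc30a10 and Ndnf, where 12.8% of all genes did so, and the median log2 fold change was -1.66 (no test is given, since the W6 libraries were used in the choice). Between the knockout and WT at week 6 the median of the 10 was 0.23, beside -0.01 over all genes. Choosing falls from W6 favours genes that measured high there, so this and the next values are a description. Klb and Fndc5 were higher in every knockout library than in every WT library at that age, as were 12.3% of all genes. For the other 8 genes the ranges overlapped.

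Il10KO W8 against WT W6 uses 6 libraries that had no part in the choice, and it asks whether the genes were already low at week 8. All 10 genes had a negative log2 fold change, with a median of -1.39 beside 0.02 over all 16300 genes tested, but no gene of the 10 passed the edgeR quasi-likelihood test after adjustment. In that comparison 78 genes were called, 75 higher and 3 lower, and the 3 lower ones are 0.0184% of genes tested. The largest fold changes were in Galnt17, with 3.81 ± 3.25 CPM at W8 against 24.1 ± 3.74 in WT, and in Fndc5, with 0.942 ± 0.435 against 5.09 ± 0.800 (SD, n = 3 each). The log2 fold change of Galnt17 was -2.66 ± 0.93, with an adjusted p of 0.249. That of Fndc5 was -2.42 ± 0.55, with an adjusted p of 0.0611. These were the 2 genes with an unadjusted p under 0.05, as had 2009 of all genes.

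The other 8 genes had log2 fold changes closer to 0, and none passed. Slc30a10 differed by -1.77 ± 1.63, Hsd3b3 by -1.68 ± 0.87 and Bmp3 by -1.42 ± 0.81, with adjusted p of 0.662, 0.458 and 0.496. Kif26b differed by -1.36 ± 0.65, Klb by -1.32 ± 0.99 and Peg10 by -1.04 ± 0.61, with adjusted p of 0.409, 0.592 and 0.501. Ndnf differed by -1.0 ± 0.63 and Syt4 by -0.69 ± 0.40, with adjusted p of 0.528 and 0.502. In 7 genes (Galnt17, Klb, Hsd3b3, Bmp3, Fndc5, Kif26b and Peg10) every W8 library lay below every WT library, as in 17.1% of all genes. In Slc30a10, Ndnf and Syt4 the ranges overlapped through replicate 1 of W8.

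The calls at W8 depended on the fit. DESeq2 called Fndc5 alone (adjusted p = 0.000213, 630 genes in all), and voom with a weight per group called Fndc5, Galnt17, Bmp3, Hsd3b3 and Klb (1156 genes). Fndc5 was called in 6 of 16 alternatives and Galnt17 in 4, and the others in 2 or fewer. Without replicate 1 of W8 the median of the 10 genes was -2.06 and 225 genes were called, none of the 10 among them. Without any one of the WT libraries 0 genes were called, and without replicate 3 of W8 25 were. Genotype, age and cage changed together in this comparison, since the WT mice were 2 weeks younger and shared a cage with no knockout mouse, so these cannot be told apart.

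**Figure D4:**
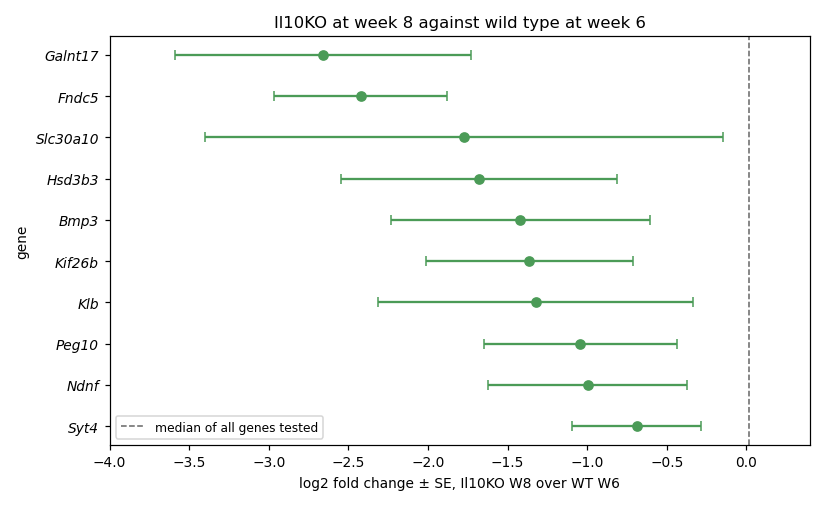
Log2 fold change (x axis) of each gene (y axis) in Il10KO W8 over WT W6, as points with SE bars from edgeR (n = 3 each), and the median of all genes tested as a dashed line. All 10 points lie below 0, between -2.66 for Galnt17 and -0.69 for Syt4.

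Lipocalin gave a measure of inflammation for each knockout mouse. The lipocalin values had no part in the choice of the genes, but the expression values at W6, W10, W12 and W14 did, so the slopes of the 10 are a description. In edgeR, with age as a factor in the 15 knockout libraries, 0 of 16282 genes (0.0%) had a slope on log10 lipocalin that passed adjustment. DESeq2 also called 0 genes. In edgeR 119 genes had an unadjusted p under 0.05, fewer than evenly spread p-values would give. The 0 called therefore does not show that slopes were absent. This number was 112 with RIN as a covariate and 120 without W14. It was 4614 without replicate 2 of W12, 2444 with a replicate block, 3902 with cage as a factor and 3681 with lipocalin in ng/g. All 10 slopes were negative, from -3.52 ± 1.93 in Galnt17 and -3.03 ± 2.31 in Klb to -0.29 ± 0.84 in Syt4 (log2 per 10-fold lipocalin), with a median of -1.76 beside -0.07 over all genes. Within W14, replicate 1 had the lowest lipocalin (2040 ng/g, against 3760 and 4290) and the highest median level. Within W10, replicate 1 had the highest lipocalin (554 ng/g, against 340 and 364) and the lowest. Within W8, replicate 1 had the lowest lipocalin (102 ng/g, against 136 and 107) and the highest. Within W6 no such order was seen, with 4.72, 2.27 and 2.31 ng/g beside medians of 94.7%, 97.8% and 92.5%. Nor was it within W12: replicate 2 had the lowest lipocalin of 444 ng/g and a median level between those of the other two. Without replicate 1 of W14 the median slope was -0.70, and the slopes of Slc30a10, Bmp3 and Syt4 turned positive (that of Slc30a10 also without replicate 3). Without replicate 2 of W12 the median slope was -4.93.

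**Figure D5:**
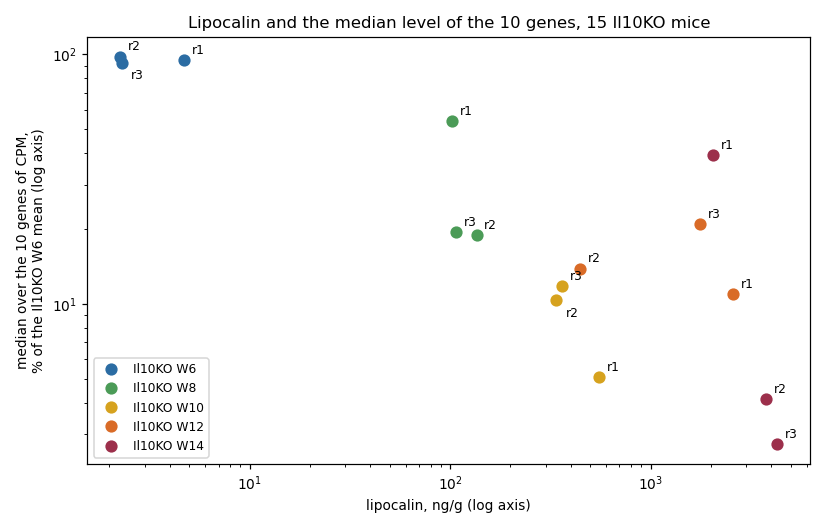
Median over the 10 genes of CPM as a percentage of the W6 mean (y axis, log scale) against lipocalin in ng/g (x axis, log scale) in the 15 knockout mice, coloured by age and labelled by replicate. Replicate 1 of W14 combines 2040 ng/g with 39.3%, while replicates 2 and 3 lie at 4.16% and 2.73%.

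Other genes of the same pathways were read from lists that exclude the 10 genes. Against W6 edgeR called 2372 genes higher (14.6%) and 1545 lower (9.48%) at W10, 221 higher (1.36%) and 80 lower (0.491%) at W12, and 3993 higher (24.5%) and 1395 lower (8.56%) at W14. On log2(TPM + 1) in limma the median of all genes shifted by -0.34, -0.36 and -0.74 at these ages, and the split became 978 higher and 2272 lower at W10, 187 and 477 at W12, and 879 and 8899 at W14. The number of genes called also changed with the libraries kept, and leaving out the 2 libraries of low RIN kept only 1 at W14. At W14, 0 genes were called without the 2 libraries of low RIN, 11335 without replicate 1, and 1880 to 2781 without any other library of W14 or W6. At W12 no more than 52 genes were called without any one library of W12 or W6. At W10 5242 were called without replicate 3 of W10, and 767 to 1824 without any other library of W10 or W6. Knockout cages spanned ages, and with cage as a factor 532 genes were called at W10, 2 at W12 and 0 at W14, of which 2 were in these 9 lists. With RIN as a covariate 0 genes were called at W14. The comparisons share the W6 libraries. The W8 against WT test called no gene of any of these 9 lists.

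Of 11 genes of the endocrine FGF axis around Klb, 8 were tested, of which 1 rose and 2 fell at W10. Fgfr3, an FGF receptor gene, fell by 2.58 on the log2 scale, to 5.04 ± 3.14 CPM at W10 against 30.2 ± 5.01 at W6. Fgfr4, the receptor that beta-klotho pairs with in the liver, fell by 1.74, to 8.22 ± 0.908 CPM at W10 against 27.5 ± 2.56 at W6. The hormone gene Fgf23 was called higher, at 2.25 ± 3.19 CPM at W10 against 0.104 ± 0.0962 at W6, a spread larger than its mean. No gene of the axis passed at W12 and 1 fell at W14, and the median log2 fold change of the 8 was -1.0 at W10, -0.69 at W12 and -0.89 at W14. Of 16 tested GalNAc-transferases other than Galnt17, 1 rose and 3 fell at W10, none passed at W12, and 2 rose and 2 fell at W14, with medians of -0.59, -0.43 and -0.66. Galnt16 changed by -2.23 ± 0.38 and Galnt3 by 1.43 ± 0.38 at W10, and Galnt2 by -1.64 ± 0.45 at W14 (edgeR adjusted p = 0.00351, 0.0189 and 0.0153). Both genes called higher at W14, Galnt3 and Galntl6, turned negative on both TPM scales there.

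Of 17 tested steroid enzymes and receptors, 4 fell and none rose at W10, none passed at W12, and 2 rose and 1 fell at W14, with medians of -0.65, -0.32 and -0.18. Hsd3b2 had the largest change, -4.41 ± 0.96 at W10 (0.214 ± 0.141 CPM, against 4.64 ± 0.647 at W6, edgeR adjusted p = 0.00981). How its reads were split from those of Hsd3b3 was not tested, as said above. Nr5a2, a nuclear receptor that drives steroid synthesis in the gut, changed by -1.99 ± 0.58 at W10, and Hsd11b1, which regenerates active glucocorticoid, by 1.93 ± 0.61 at W14 (0.05 to 2.38 over 17 alternatives). The other gene called higher at W14, Srd5a2, turned negative on both TPM scales. Of 21 tested zinc and manganese carriers, 4 rose and 3 fell at W10, 1 fell at W12, and 5 rose and 3 fell at W14. Their median was 0.09 at W10, where it turned to -0.74 on log2(TPM + 1), and -0.32 at W12 and -0.30 at W14. Slc30a2 changed by 2.10 ± 0.43 and Slc39a5 by -1.24 ± 0.38 at W10, and Slc39a6 by -1.15 ± 0.27 at W12. Of the 5 carriers called higher at W14, Slc30a5, Slc30a6, Slc30a9 and Slc39a1 turned negative on both TPM scales.

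Of the BMP pathway 36 genes were tested. At W10 2 rose and 5 fell, at W12 1 fell, and at W14 3 rose and 5 fell, with medians of -0.75, -0.77 and -0.73. The receptor gene Bmpr1b changed by -2.22 ± 0.77 at W10, and the BMP target genes Id1 and Id3 changed by 2.05 ± 0.44 and 1.73 ± 0.41 at W14. Over 17 alternatives these lay between 0.28 and 2.49 and between 0.19 and 2.14, and Id2, the other gene called higher at W14, turned negative on both TPM scales. At W10 Id1 was called higher, by 1.90 ± 0.44, and Id4 lower, by -1.61 ± 0.44. Among 11 tested genes of the FNDC list 1 fell at W10, none passed at W12 and 2 fell at W14, with medians of -0.34, -0.37 and -0.44. Fndc1 changed by -2.43 ± 0.57 at W10 and Fndc3b by -0.94 ± 0.33 at W14 (-2.37 to -0.28 over 17 alternatives).

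Of 27 tested synaptotagmins and secretory vesicle genes, 1 rose and 10 fell at W10, none passed at W12, and 1 rose and 5 fell at W14. Syt2 changed by -3.27 ± 0.97 and Syt3 by -2.42 ± 0.60 at W10, and Syt8 by 2.53 ± 0.65 at W14 (0.59 to 2.97 over 17 alternatives). The median log2 fold change of this list was -1.17 at W10, -1.15 at W12 and -0.99 at W14, beside 0.01, 0.0028 and -0.06 over all genes. In Wnt5a and Ror signalling, the pathway of Kif26b, 7 of 20 genes fell at W10, none passed at W12, and 6 fell at W14, with none called higher and medians of -1.38, -1.15 and -1.33. The receptor Ror1 changed by -2.48 ± 0.66, Vangl2 of planar polarity by -1.97 ± 0.60 and Fzd4 by -1.95 ± 0.45 at W10. Of 19 tested imprinted genes other than Peg10, 1 rose and 7 fell at W10, none passed at W12, and 1 rose and 3 fell at W14, with medians of -1.12, -0.43 and -0.66. Peg3 changed by -2.16 ± 0.73 and Igf2 by -2.13 ± 0.51 at W10. Phlda2 changed by 2.35 ± 0.82 at W10, where it was called in 7 of 16 alternatives. At W14 it changed by 3.28 ± 0.85, and by -0.46 without the 2 libraries of low RIN.

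Markers of resident cells and of leukocytes differed between the same libraries, and their part in the levels of the 10 genes was not tested. The 8 enteric neuron markers summed to 104 to 111 TPM at W6, 47.2 to 123 at W8, 24.1 to 49.6 at W10, 31.7 to 35.8 at W12, 16.7 to 81.3 at W14 and 105 to 126 in WT. The 7 endothelial markers summed to 90.2 to 96.3 TPM at W6, 24.99 to 79.2 at W8, 18.6 to 36.1 at W10, 17.6 to 27.9 at W12, 9.80 to 65.2 at W14 and 74.2 to 95.3 in WT. Of these, 5 of 8 enteric neuron markers and 5 of 7 endothelial markers fell at W10, where 9.48% of all genes tested did so. None of either list passed at W12, where 0.491% of all genes were called lower. The median log2 fold changes of the neuron and endothelial lists were -1.54 and -1.67 at W10. At W12 they were -1.82 and -1.785. At W14 2 of 8 and 4 of 7 fell, beside 8.56% of all genes. In both lists replicate 1 held the highest sum at W8 and at W14, as it did for the median of the 10 genes. The same held in the colonocyte, enteroendocrine, crypt, enteric glia, smooth muscle, interstitial cell of Cajal and fibroblast lists. It did not hold at both ages in the goblet and adipocyte lists. At W10 4 of 7 fibroblast, 2 of 4 interstitial cell of Cajal, 1 of 5 glia and 1 of 5 tested adipocyte markers fell. No smooth muscle or goblet marker was called there. Of 8 enteroendocrine markers 1 rose and 1 fell, and of 6 crypt markers 1 rose, beside 14.6% of all genes called higher. At W14 2 of 7 fibroblast and 1 of 8 enteroendocrine markers fell. There 3 of 7 goblet, 3 of 8 enteroendocrine and 1 of 6 crypt markers rose, beside 24.5% of all genes.

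The 8 colonocyte markers summed to 5578 to 6651 TPM at W6, 3557 to 4365 at W8, 1295 to 2848 at W10, 2921 to 3977 at W12, 1155 to 3960 at W14 and 4179 to 5878 in WT. Their sum was lower in every library from W8 on than in every W6 library, but single markers were mixed. At W10 2 of the 8 were called higher and 3 lower, beside 14.6% and 9.48% of all genes, with a median log2 fold change of -1.36. At W12 1 was called lower, beside 0.491% of all genes. At W14 1 was called higher and 1 lower, beside 24.5% and 8.56%. The 6 neutrophil markers summed to 348 to 412 TPM at W6, 475 to 1086 at W8, 1252 to 20100.0 at W10, 804 to 857 at W12, 378 to 25130.0 at W14 and 248 to 343 in WT. Of these 5 rose at W10, none passed at W12 and 6 rose at W14, beside 14.6%, 1.36% and 24.5% of all genes. The lowest neutrophil sum of W14, 378 TPM, was that of replicate 1, and the highest of W10, 20100.0 TPM, was that of replicate 1. Goblet cell markers did not follow the 10 genes in every group: the 7 summed to 21160.0 to 22810.0 TPM at W6, 14090.0 to 18920.0 at W8, 7852 to 20020.0 at W10, 20610.0 to 24160.0 at W12, 20610.0 to 28180.0 at W14 and 21520.0 to 23250.0 in WT. Replicate 1 held the lowest goblet sum of W14. Of 15 marker lists, the only marker at 0 in all libraries of a group was Olfm4 in WT.

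The genes whose profiles lay closest to each of the 10 were taken over the 18 libraries, among 13728 genes with a mean log2 CPM of at least 0, as the 2 with the smallest root mean square difference of centred log2 CPM. For Syt4 these were Ahi1 and Ret, at 0.303 and 0.317, and for Peg10 Lamb1 and Cdh6, at 0.322 and 0.334. For Bmp3 they were Pcsk5 and Cdh13, at 0.375 and 0.420, and for Ndnf Dach1 and Ptprb, at 0.447 and 0.536. For Kif26b they were Sv2c and Gpr37l1, at 0.542 and 0.548, and for Fndc5 Cd300lg and Robo4, at 0.632 and 0.635. Abcb1a was named for both Klb (0.645, after Rims4 at 0.633) and Galnt17 (0.773, after Minar1 at 0.654). Pck1 was named for both Hsd3b3 (0.740, after Hsd3b2 at 0.578) and Slc30a10 (1.12, after Itih2 at 1.0). Among the 10 themselves Syt4 and Peg10 were the closest pair, at 0.478, and Slc30a10 and Syt4 lay farthest apart, at 2.42.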

How the data were processed

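Distal colon biopsies of 18 BALB/c mice gave polyA RNA libraries in 6 groups of 3, which the labels give as separate mice. Per the submitters' processing notes, FastQC and kallisto were used with the mouse build mm10; their versions are not given in the sources used here. The deposited gene table holds the expected counts of kallisto rounded to whole numbers, beside the authors' deposited TPM values, and the transcript tables hold the estimated counts and TPM per transcript. kallisto shares reads between similar transcripts, so counts of near-identical genes are uncertain.

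Of 16321 genes, each with a sum of at least 50 counts in the deposited table, 16300 passed filterByExpr. edgeR 4.0.16 (TMM, quasi-likelihood F-test, 6 group means in 1 fit, R 4.3.3) gave adjusted p-values by Benjamini-Hochberg over all genes tested, with a threshold of 0.05; the SE is the log2 fold change without shrinkage divided by the square root of F. The lipocalin slope used the 15 Il10KO libraries with age as a factor. Alternatives used DESeq2 1.42.0, limma 3.58.1 on log2(TPM + 1) and log2(TPM + 0.1), voom with a weight per group, other scaling and filters, RNA integrity and cage terms, a replicate block and left-out libraries. The voom fits, the W8 against WT fit without W14, lipocalin in ng/g and the cage term for lipocalin were chosen after seeing the data. Python 3.11.15 with pandas 2.3.3 made the descriptive values, and matplotlib 3.10.9 the plots. Annotation was GENCODE M21 (GRCm38), and 97.68% of transcript IDs matched. Promoter windows came from RefSeq (GRCm38.p6).

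The 10 genes and the lists were chosen with earlier results of these data known. All 10 are given in every library, and only Il10KO W8 against WT W6 tests them. Their other changes and their lipocalin slopes use libraries of the choice and are a description. From each pathway list up to 3 genes with the largest change among those called at W10, W12 or W14 were named, and a few others beside them. The edgeR tests of W8 against WT and of lipocalin were also run on simulated counts. Those counts had the same dispersion in every group, whereas the voom weights of the data ran from 0.177 at W14 to 3.0 at Il10KO W6. The simulation therefore cannot show how the tests behave in these data, and nothing is drawn from it.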

Additional observations from a re-analysis of the deposited data

How the results depend on the processing

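In Il10KO W8 against WT W6, edgeR called 78 genes and 0 of the 10. DESeq2 called 630 and 1, limma on log2(TPM + 1) 118 and 2, only the compared groups 281 and 1, RIN as a covariate 646 and 3, a fit without W14 652 and 2, and voom with a weight per group 1156 and 5. Leaving out 1 library gave 0 to 225 genes, with 0 when any WT library was left out and 25 without replicate 3 of W8. The replicate block gave 100 genes and 0 of the 10, with a median of -1.54 over the 10; replicate numbers did not pair the samples (deviations of same-numbered libraries correlated above 0.1 in 13 of 45 pairs, range -0.62 to 0.475). The direction was negative for all 10 in every alternative of this comparison.

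For the lipocalin slope the replicate block called 1 gene and leaving out 1 library 0 to 2 genes. The slope changed sign for Slc30a10 (1.41 with RIN as a covariate, 1.69 without W14, -13.3 to 1.66 leaving out 1 library), Bmp3 (0.34, 0.28 and -5.68 to 0.21) and Syt4 (0.26, 0.16 and -1.79 to 0.16); the cause was not tested.

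At W10 against W6 the genes called were 3917. They were 5943 with DESeq2, 2021 on log2(TPM + 0.1), 6177 with only the compared groups, 7584 with RIN, 532 with cage as a factor, 7023 with voom, and 767 to 5242 leaving out 1 library. At W12 they were 301, and 2507 with DESeq2, 664 and 137 on log2(TPM + 1) and log2(TPM + 0.1), 9186 with only the compared groups, 5753 with RIN, 2 with cage, 10096 with voom, and 0 to 52 leaving out 1 library. At W14 they were 5388, and 9778 and 10067 on the TPM scales, 1377 with voom, 0 with only the compared groups, 0 with RIN, 0 with cage, 0 without the 2 libraries of low RIN, and 1880 to 11335 leaving out 1 library. Slc30a10 at W14 changed sign with RIN (0.034), without those 2 libraries (0.72) and in the range -9.06 to 0.49 leaving out 1 library; the cause was not tested. With 0 to 3 counts, as in replicates 2 and 3 of W14 for Klb and Slc30a10, differences between libraries were not detectable at this depth.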
